A study of Mus musculus with 2 samples.

Results

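Cytochrome c oxidase, complex IV of the respiratory chain, passes electrons from cytochrome c to oxygen in the inner mitochondrial membrane. Its catalytic core is encoded by the mitochondrial genome and is surrounded by small subunits encoded in the nucleus. At several of these nuclear positions mammals carry paralogous genes. Cox6a2, Cox7a1 and Cox8b are known as the forms of skeletal and heart muscle, and Cox6a1, Cox7a2 and Cox8a as the forms found in most tissues. In rodent muscle the muscle forms are known to gain on the ubiquitous forms around and after birth. This account covers 10 such paralogues (Cox4i1, Cox4i2, Cox6a1, Cox6a2, Cox6b1, Cox7a1, Cox7a2, Cox7a2l, Cox8a and Cox8b), taken by gene symbol from 55536 annotated genes. All 10 had 10 counts or more over both libraries and averaged at least 1 TPM, the number of transcripts of a gene among all transcripts, scaled to a fixed sum and corrected for length.

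The tissue was the gastrocnemius, a calf muscle, of male B6CASTF1/J mice, the offspring of C57BL/6J and CAST/EiJ, at an age of 14 days. Total RNA of 1 group was sequenced in 2 libraries, called biological replicates 1 and 2, each from 300 ng of RNA with added ERCC control RNAs and no treatment named. The labels speak of 3 males and give both libraries the same donor identifier, so it is not settled whether the libraries came from separate animals or from pools. Any p-value sets the difference between these 2 libraries against counting error alone, and that difference may be technical. The libraries held 40825601 and 37329025 expected counts, of which the 10 paralogues took 0.134% and 0.137%. Each library was quantified in 2 ways by the authors, from reads aligned to the transcriptome (alignment-based) and directly from the reads (read-based). Differentiated muscle fibre markers were all present, 6 of 6 at 1 TPM or more in both libraries, with a summed level of 91508 and 98313 TPM. Brown fat and heart also use the muscle forms. Of 4 brown adipocyte markers 1, Cidea at 2.15 and 1.28 TPM, reached 1 TPM in both libraries (summed level 2.53 and 2.28 TPM). Ucp1 was at 0.02 and 0.43 TPM, Dio2 at 0.36 and 0.57 TPM and Elovl3 at 0. Of 5 heart markers 2 reached 1 TPM in both libraries, Myh6 at 54.55 and 48.99 TPM and Tnnt2 at 10.28 and 8.86 TPM. Tnni3, on 5 and 15 counts, did so in replicate 2 alone, and Nppa and Nppb were at 0. The summed level of the 5 was 65.2 and 58.9 TPM. In bulk tissue, fewer cells of a type and less RNA per cell cannot be told apart.

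Reads can be assigned to a paralogue only where the sequences differ. The coding sequences of Cox7a1 and Cox7a2, whose ratio turned on the quantification, are shown without their stop codons (GENCODE M21, GRCm38), with the longest run that they share, 12 bases, in capitals. Cox7a1 is read on the plus strand within chr7:30184231-30185964 and Cox7a2 on the minus strand within chr9:79755550-79759657, introns left out.
Cox7a1: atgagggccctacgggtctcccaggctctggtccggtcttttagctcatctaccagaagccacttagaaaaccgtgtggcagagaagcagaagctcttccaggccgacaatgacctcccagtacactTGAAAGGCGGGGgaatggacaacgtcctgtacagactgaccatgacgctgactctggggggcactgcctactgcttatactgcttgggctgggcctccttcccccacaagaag
Cox7a2: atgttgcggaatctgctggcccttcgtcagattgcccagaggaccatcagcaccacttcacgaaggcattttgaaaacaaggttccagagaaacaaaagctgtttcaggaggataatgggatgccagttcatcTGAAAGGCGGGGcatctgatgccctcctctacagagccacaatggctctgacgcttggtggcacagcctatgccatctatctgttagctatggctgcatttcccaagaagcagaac
Over 240 aligned bases these coding sequences were 62.5% identical. The other pairs were 64.6% (Cox6a2 and Cox6a1), 55.7% (Cox8b and Cox8a), 69.0% (Cox4i1 and Cox4i2) and 68.8% identical (Cox7a2 and Cox7a2l), with no shared run over 14 bases. No stretch of 31 bases of any of the 10 genes occurred in another of the listed subunit genes. Reads of Cox7a2l could be shared with Gm6969, since 7.77% of the 100-base and 16.6% of the 31-base stretches of Cox7a2l transcripts also occur there. The level of Cox7a2l is therefore uncertain, by an amount that was not tested. Gm6969 itself was given 54.2 and 51.8 TPM by the alignment-based tables and 22.7 and 16.7 TPM by the read-based ones. Cox6a1 shares 18.5% of its 31-base and 1.04% of its 100-base stretches with AC148174.2. That entry was at 0 TPM in the alignment-based tables and at 0.445 and 0.118 TPM in the read-based ones. For Cox4i1, 12.9% of the 31-base stretches occur in another gene, 3.67% on the same strand. The effect on the levels of Cox6a1 and Cox4i1 was not tested.

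Among the 10 genes Cox7a2 differed most between the quantifications, mostly through 1 annotated transcript. Cox7a2-203, annotated as a processed transcript with no coding sequence, replaces the first exon of Cox7a2-201, which holds the start codon, by another one. The 102 bases of this exon, chr9:79759150-79759251 on the minus strand, lie within the first intron of Cox7a2-201 and are all that its sequence has and Cox7a2-201 lacks. They are shown in lower case, followed in capitals by the first 20 bases of the coding exon that both transcripts share.
Cox7a2-203: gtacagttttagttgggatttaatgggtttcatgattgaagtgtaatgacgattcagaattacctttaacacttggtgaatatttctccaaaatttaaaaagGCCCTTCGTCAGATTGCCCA

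The muscle form stood far above the ubiquitous form at the Cox6a and Cox8 positions. Cox6a2, a subunit at the interface of the complex IV dimer, was at 539.68 and 551.93 TPM in replicates 1 and 2. Its ubiquitous counterpart Cox6a1 was at 47.29 and 45.70 TPM. The libraries did not overlap between these genes, and the ratio was 11.7 ± 0.470 (SD, n = 2), with Cox6a2 giving 92.1% of the pair. Cox8b, a small subunit with a single membrane span, was at 658.04 and 673.07 TPM, and Cox8a at 75.46 and 74.00 TPM. The ratio of Cox8b to Cox8a was 8.91 ± 0.265 (SD, n = 2), and Cox8b gave 89.9% of the pair. The read-based tables gave lower ratios of 7.63 ± 0.586 and 7.23 ± 0.425 (SD, n = 2), in the same direction in both libraries. With 2 libraries an exact sign-flip test cannot go below p = 0.5, so these ratios are descriptions with their spread.

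At the Cox7a position the levels of the forms were closer, and their order depended on the quantification. Cox7a subunits sit where complex IV meets complex III in respiratory supercomplexes. Cox7a1 was at 435.80 and 445.89 TPM and Cox7a2 at 269.76 and 253.58 TPM, a ratio of 1.69 ± 0.101 (SD, n = 2). In the read-based tables Cox7a1 was at 583 and 626 TPM and Cox7a2 at 713 and 667 TPM, a ratio of 0.878 ± 0.0843 (SD, n = 2). The genes thus changed places in both libraries. Read-based Cox7a2-203 took 438 and 397 TPM, or 60.5% of the gene, whereas the alignment-based tables gave it 70.92 and 62.31 TPM, or 25.4%. Counting protein-coding transcripts alone, a measure added after the values had been seen, gave 2.27 ± 0.0999 and 2.22 ± 0.132 in the alignment-based and read-based tables (SD, n = 2). Without division by length the alignment-based counts were 4153 and 3978 for Cox7a1 and 4418 and 3908 for Cox7a2, a ratio of 0.979 ± 0.0551 (SD, n = 2). The share of Cox7a1 was therefore 62.8% or 46.7% of the pair by table, the lowest of the 3 muscle forms in both.

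Cox4i1, the form of subunit 4 found in most tissues, was at 809.80 and 805.37 TPM and ranked 41 among 22015 nuclear protein-coding genes. Cox4i2, known from lung, smooth muscle and pericytes and from oxygen sensing, was at 2.68 and 3.03 TPM, on 54 and 57 counts. The authors' interval for Cox4i2 ran from 2.03 to 3.44 TPM in replicate 1 and from 2.31 to 3.85 TPM in replicate 2. Cox4i1 exceeded Cox4i2 by 284 ± 25.7 times (SD, n = 2), and by 298 ± 57.5 times in the read-based tables. Markers of pericytes and smooth muscle were present, 10 of 10 at 1 TPM or more in both libraries with a summed level of 447 and 434 TPM and Higd1b lowest at 3.73 and 2.32 TPM. Their part in the Cox4i2 level was not tested.

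Cox7a2l, also called SCAF1, is a relative of Cox7a2 that ties complex IV to complex III in supercomplexes. It was at 66.64 and 70.13 TPM, so that Cox7a2 exceeded it 3.83 ± 0.306 times (SD, n = 2). The read-based ratio was 5.08 ± 0.435, and it was 2.85 ± 0.179 and 2.61 ± 0.179 over coding transcripts of the alignment-based and read-based tables (SD, n = 2). The C57BL/6 allele of this gene is known to encode a shortened protein, and the deposited values do not separate the alleles of the cross.

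Cox6b1 faces the intermembrane space at the dimer interface, and its known paralogue Cox6b2 belongs to testis. Cox6b1 was at 849.39 TPM in one library (replicate 1) and 674.10 TPM in the other, the widest spread of the 10 genes on a relative scale (762 ± 124, SD, n = 2). Its counts, 10065 and 9238, did not differ by the exact binomial test (adjusted p = 0.243). The effective length by which the counts were divided was 370 bases in replicate 1 and 457 in replicate 2. That length follows from the transcripts to which counts were assigned. Cox6b1-201 was at 360 and 516 TPM, Cox6b1-204, which encodes 43 residues instead of 86, at 313 and 146 TPM, and the retained-intron transcript Cox6b1-202 at 175 and 12.4 TPM. In the read-based tables Cox6b1-201 took 94.9% and 84.2% of 720 and 773 TPM. Cox6b2 was at 1.18 and 1.37 TPM on 15 counts in each library.

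**Figure D1:**
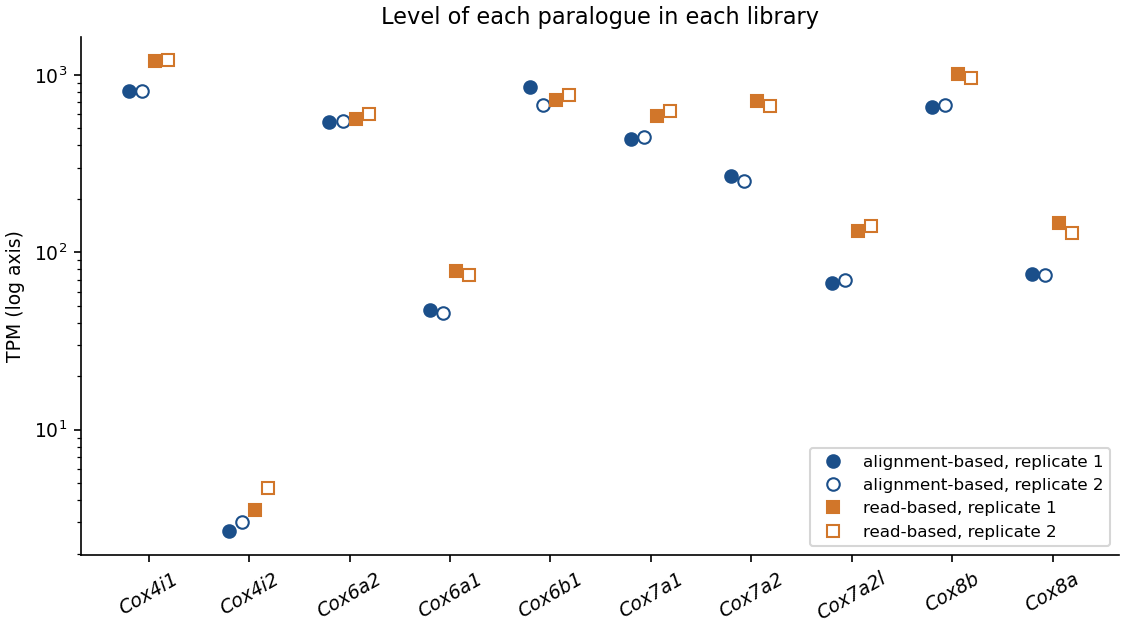
Level of the 10 genes in TPM on a log axis, 1 point per library (filled for replicate 1, open for replicate 2), with circles for the alignment-based and squares for the read-based quantification. Cox4i2 lies lowest at 2.68 and 3.03 TPM, and Cox7a2 shows the widest gap between the quantifications.

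Ordered by mean alignment-based TPM, Cox4i1 (808 ± 3.13) came before Cox6b1 (762 ± 124), Cox8b (666 ± 10.6), Cox6a2 (546 ± 8.66), Cox7a1 (441 ± 7.13) and Cox7a2 (262 ± 11.4, SD, n = 2). Cox8a (74.7 ± 1.03), Cox7a2l (68.4 ± 2.47), Cox6a1 (46.5 ± 1.12) and Cox4i2 (2.86 ± 0.247) followed. Among neighbours in this order, the values of Cox4i1 and Cox6b1 overlapped. Cox6b1 and Cox8b, at 674.10 and 673.07 TPM where they came closest, had means that differed by less than the SD of Cox6b1, and the other neighbours lay further apart than their SDs. The read-based order was Cox4i1, Cox8b, Cox6b1, Cox7a2, Cox7a1, Cox6a2, Cox8a, Cox7a2l, Cox6a1 and Cox4i2. There the values of Cox7a1 overlapped those of Cox6a2 (565 and 601 TPM), and those of Cox8a (146 and 128 TPM) overlapped those of Cox7a2l (132 and 140 TPM). Each gene except Cox6b1 was higher in the read-based table in both libraries.

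**Figure D2:**
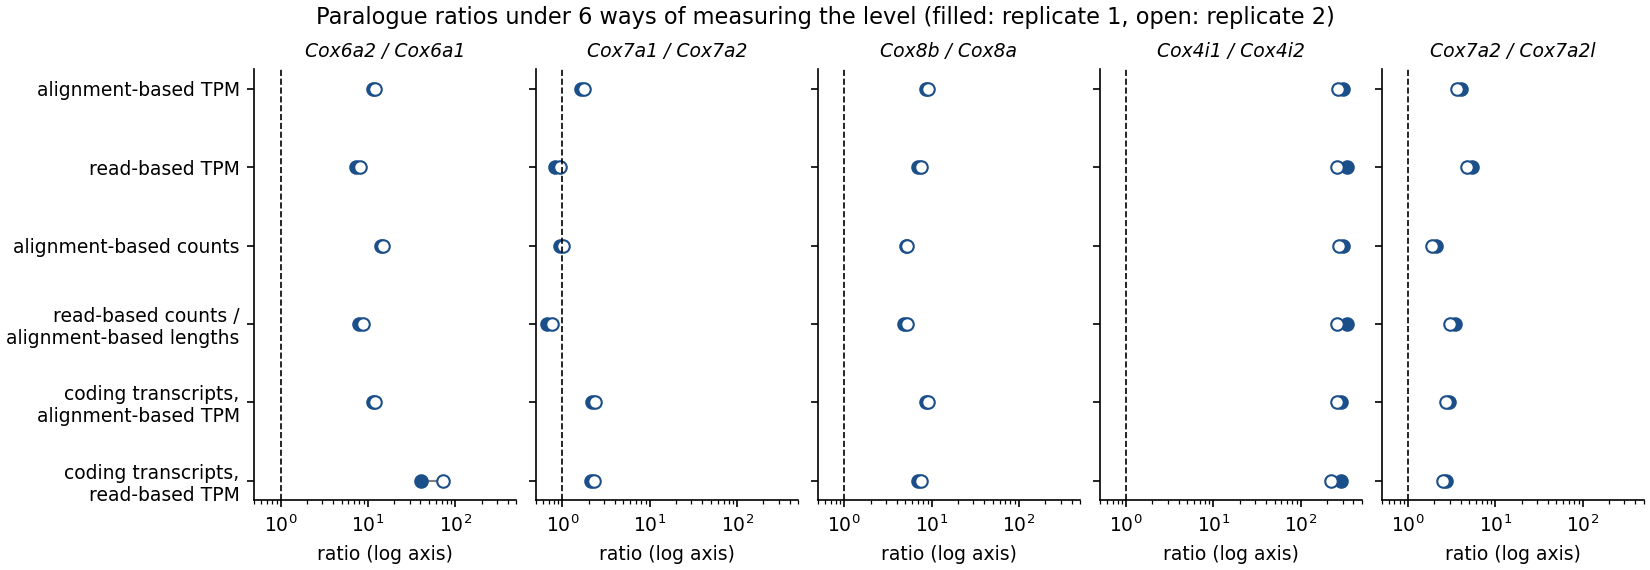
Ratio of the paralogues in each of 5 pairs on a log axis, under 6 ways of measuring the level, with 1 point per library (filled for replicate 1, open for replicate 2) and a dashed line at a ratio of 1. Cox7a1 over Cox7a2 lies on either side of the line, from 0.710 to 2.27 as a mean over the libraries, and the 4 other pairs stay above it.

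Over 1.5-fold differences between the quantifications, in the same direction in both libraries, were found for 4 of the 10 genes, all higher in the read-based table. Among 11716 genes that averaged 1 TPM or more this held for 23.2% in either direction and for 22.1% upward, and the median log2 difference was 0.43 and 0.44 (0.59 and 0.61 for the 10 genes). The 4 genes were Cox7a2 (log2 difference of 1.40 in both libraries), Cox7a2l (0.99 and 1.00), Cox8a (0.95 and 0.79) and Cox6a1 (0.73 and 0.71). Past 2-fold only Cox7a2 was left, against 4.92% of all genes. None of the muscle forms was among the 4. Cox8b (0.62 and 0.51) passed 1.5-fold in replicate 1 alone. Cox7a1 (0.42 and 0.49) and Cox6a2 (0.07 and 0.12) passed in neither library. Counts went differently: the read-based count was 0.458 and 0.428 of the alignment-based count for Cox8b, 0.550 and 0.576 for Cox6a2, 0.539 and 0.558 for Cox7a1 and 0.554 and 0.562 for Cox6b1. For the other 6 genes this ratio lay between 0.741 (Cox4i2) and 1.28 (Cox7a2l), and its median over all genes was 1.06 and 1.07. Protein-coding genes under 800 bases had a median of 0.923 in both libraries, and longer protein-coding genes one of 1.07. The alignment-based tables took 99 bases off a transcript's length to give its effective length, and the read-based ones took 339.1 and 337.1 bases off long transcripts. Cox8b, whose mRNA has 360 bases, had an effective length of 261 bases in the alignment-based tables. In the read-based ones it was 87.0 and 87.3 bases, so less was taken off than for long transcripts.

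Transcript shares moved with the quantification in other genes of the set too. Cox6a1-201, the coding transcript, had 47.29 and 45.29 TPM in the alignment-based tables but 14.0 and 8.34 in the read-based ones. There the retained-intron transcript Cox6a1-202 had 64.2 and 66.4 TPM, so the coding share of Cox6a1 went from 99.6 ± 0.634% to 14.5 ± 4.78% (SD, n = 2). Over coding transcripts alone the read-based Cox6a2 to Cox6a1 ratio was 56.2 ± 22.5 (SD, n = 2). For Cox4i1 the alignment-based tables placed 96.2% in Cox4i1-201, whereas 85.6% of the read-based level lay in Cox4i1-205, which has the same coding sequence and 20 more bases. A further 12.4% of read-based Cox4i1 went to Cox4i1-207, annotated for nonsense-mediated decay. Cox7a1 was 96.1% Cox7a1-201 in the alignment-based tables, against 47.2 ± 3.11% for Cox7a1-201 and 52.8 ± 3.11% for Cox7a1-202 in the read-based ones (SD, n = 2). The annotated Cox7a1-201 encodes 80 residues and Cox7a1-202 encodes 89. Cox7a2l gave 23.3% to the retained-intron transcript Cox7a2l-204 and Cox7a2l-201 had 74.8% in the read-based tables, against 97.1% for Cox7a2l-201 in the alignment-based ones. The 40 and 49 read-based counts of Cox4i2 were all placed in Cox4i2-202 in replicate 1 and in Cox4i2-201 in replicate 2, transcripts with the same coding sequence. Cox6a2 and Cox8b have 1 annotated transcript each, and Cox8a had all its TPM in Cox8a-201.

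**Figure D3:**
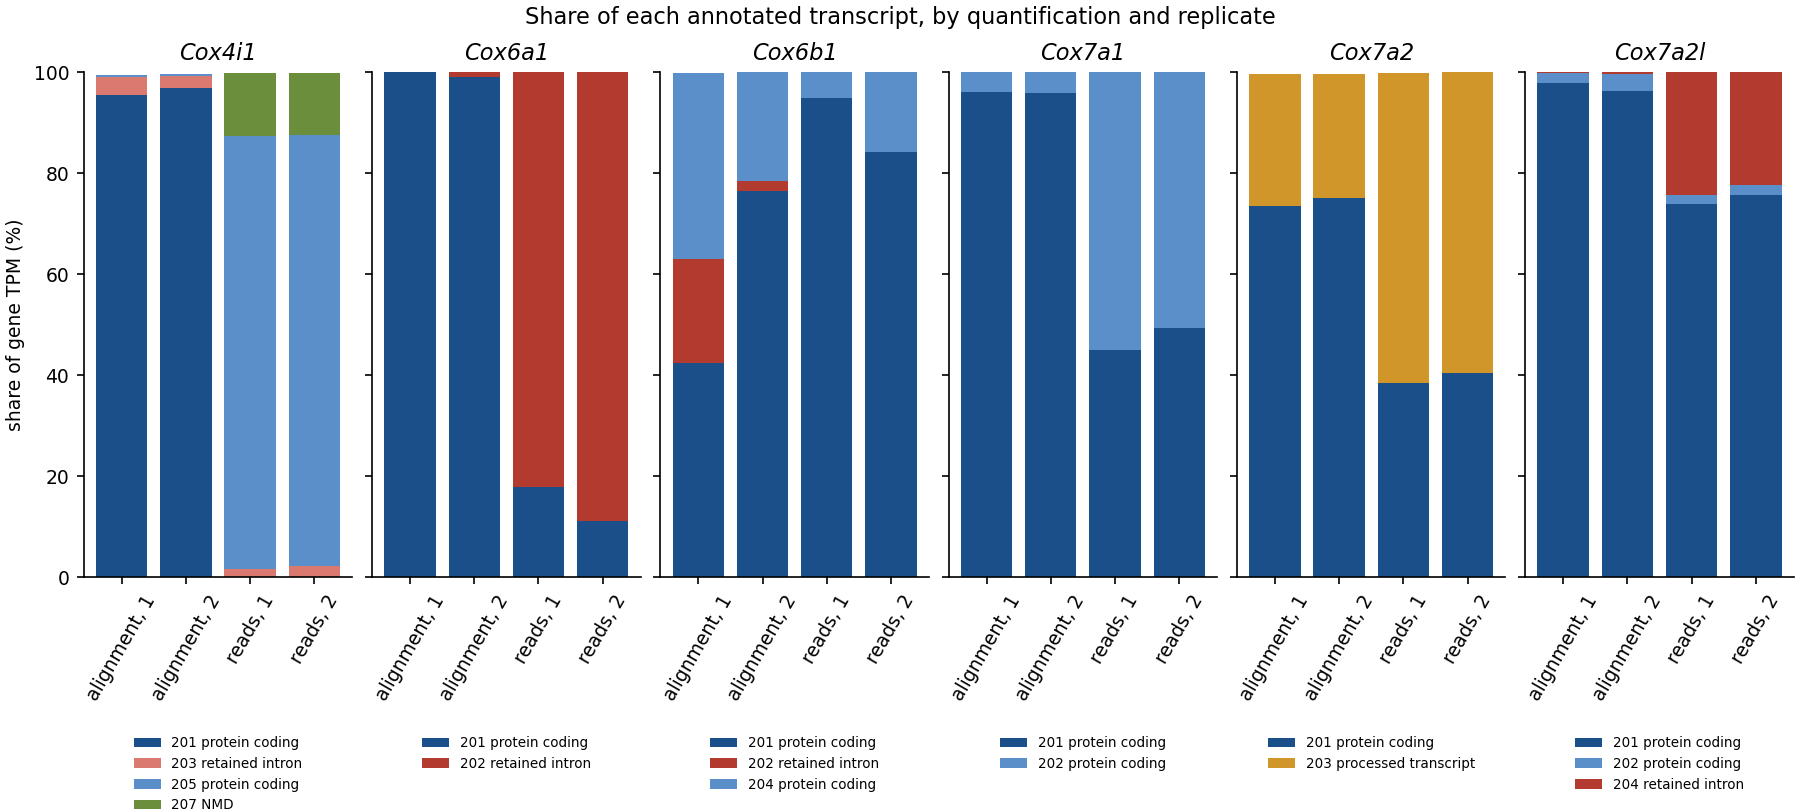
Share of each annotated transcript in the TPM of 6 genes, in percent, with 1 bar per quantification (alignment or reads) and replicate, and transcripts under 1% left out. Blue stands for protein-coding transcripts, red for retained introns, ochre for a processed transcript and green for nonsense-mediated decay (NMD), and the blue part shrinks most in Cox6a1 and Cox7a2 from the alignment-based to the read-based bars.

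Complex IV holds one copy of each nuclear subunit, and the forms that share a position were added up. In the alignment-based tables the summed level was 810 ± 2.89 TPM for Cox4, 763 ± 124 for Cox6b, 740 ± 9.60 for Cox8, 703 ± 4.31 for Cox7a and 592 ± 7.54 for Cox6a (SD, n = 2). Cox7a2l was left out of the Cox7a sum. The positions with a single expressed gene were Cox5b (657 ± 14.0), Cox5a (635 ± 15.0), Cox7b (441 ± 11.9), Cox6c (426 ± 1.79) and Cox7c (400 ± 11.9, SD, n = 2). The 10 positions thus lay within 2.17-fold in replicate 1 and 1.98-fold in replicate 2, with a coefficient of variation of 24.4 ± 1.75% (SD, n = 2). Taking only the higher gene at each position gave 27.8% and 24.1% against 25.7% and 23.2% for the sums. The read-based tables gave a coefficient of 22.0 ± 1.64% but another order, with Cox7a highest at 1295 ± 2.06 TPM and Cox6a lowest at 660 ± 23.3 TPM. Over coding transcripts alone the spread was wider, 40.9 ± 0.369% and 43.4 ± 0.855% in the alignment-based and read-based tables, with Cox7b lowest in each at 183 ± 4.11 and 1.64 ± 0.347 TPM (SD, n = 2).

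**Figure D4:**
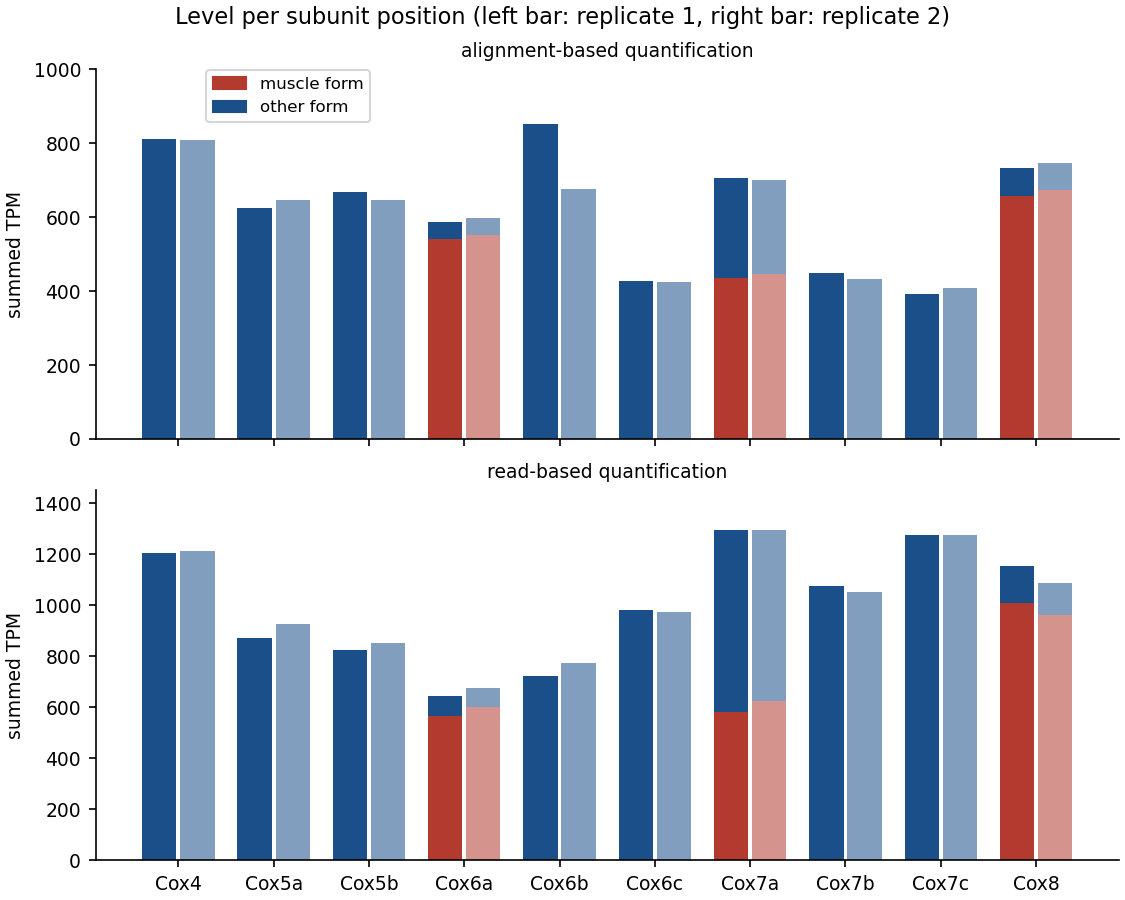
Summed TPM of the nuclear subunit positions, with the left bar for replicate 1 and the right, paler bar for replicate 2, red for the muscle forms Cox6a2, Cox7a1 and Cox8b and blue for all other forms. The muscle form fills most of the Cox6a and Cox8 bars in both quantifications and the smaller share of the read-based Cox7a bar.

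Ndufa4, a subunit loosely held by complex IV, was at 599 and 588 TPM. Cox7b2 and Cox8c, paralogues known from testis, had 0 counts in both libraries, and a floor of 3 counts corresponds to 0.0735 and 0.0804 CPM (counts scaled to the same fixed sum). The mitochondrially encoded mt-Co1 was at 11820 and 10885 TPM. This value is uncertain too, since 30.8% of the 100-base stretches of mt-Co1 occur in other genes, 26.3% in Gm29216, which was listed at 4583 and 4831 TPM by the alignment-based tables and at 1238 and 1202 TPM by the read-based ones. Values of mt-Co2 (92.7 and 82.8 TPM) and mt-Co3 (1152 and 1833 TPM) are the least certain, since 99.5% and 99.9% of their 100-base stretches also occur in the nuclear copies Gm28661 and Gm28437. Those copies were listed at 13418 and 12525 TPM and at 9811 and 8348 TPM. The read-based tables gave 897 and 984 TPM for mt-Co2 and 3051.5 and 3581.5 TPM for mt-Co3. In both libraries the authors' intervals for these 2 genes lay above the alignment-based values. In replicate 1 they ran from 471 to 1071 TPM (mt-Co2) and from 3682 to 4652 TPM (mt-Co3). By the alignment-based tables all 28 listed assembly factors of complex IV were at 1 TPM or more in both libraries. Their median was 15.4 TPM. The highest were Cox14 (82.3 and 83.6 TPM), which helps the synthesis of the mt-Co1 protein, and Cox17 (61.6 and 66.9 TPM), a copper chaperone. In the read-based tables Pet117 had 0 counts in both libraries. There Higd1a, at 130 and 141 TPM, lay above Cox14 (126 and 128 TPM) and Cox17 (56.5 and 67.8 TPM). Cycs, the cytochrome c that feeds electrons to the enzyme, was at 51.99 and 52.00 TPM, but at 701 and 730 TPM in the read-based tables. Cyct, its testis form, had 0 counts in replicate 1 and 1 in replicate 2.

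Between the libraries, 5 of the 10 genes differed beyond counting noise, all slightly higher in replicate 2, against 21.7% of 17245 genes tested that differed in either direction and 11.4% that were higher in replicate 2. The two-sided exact binomial test on TMM-scaled counts was used, with Benjamini-Hochberg adjustment over all genes tested. It compares 2 libraries and no conditions, and the more counts a gene has, the smaller the difference that passes. The shares over all genes cover genes from 10 counts upward and were not matched by counts to the 10 genes. All 3 muscle forms were among the 5. Cox6a2 had 10043 and 9609 counts, a log2 difference of 0.10 (adjusted p = 4.92e-05, exact binomial test). Cox8b had 5501 and 5264 counts, a log2 difference of 0.10 (adjusted p = 0.00456, exact binomial test). Cox7a1 had 4153 and 3978 counts, a log2 difference of 0.10 (adjusted p = 0.0152, exact binomial test). Cox4i1, with 16442 and 15399 counts, differed by 0.06 and Cox7a2l, with 2087 and 2056 counts, by 0.14 on the log2 scale (adjusted p = 0.000677 and 0.0140, exact binomial test). Cox6a1 had 715 and 647 counts, Cox7a2 had 4418 and 3908 and Cox8a had 1090 and 1000. These ubiquitous forms, Cox6a1 (0.01), Cox7a2 (-0.02) and Cox8a (0.03) and also Cox6b1 (0.04) and Cox4i2 (0.24) did not pass, with adjusted p from 0.243 to 0.946 by the same exact test. Whether the muscle forms differed from the ubiquitous ones in this respect was not tested.

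**Figure D5:**
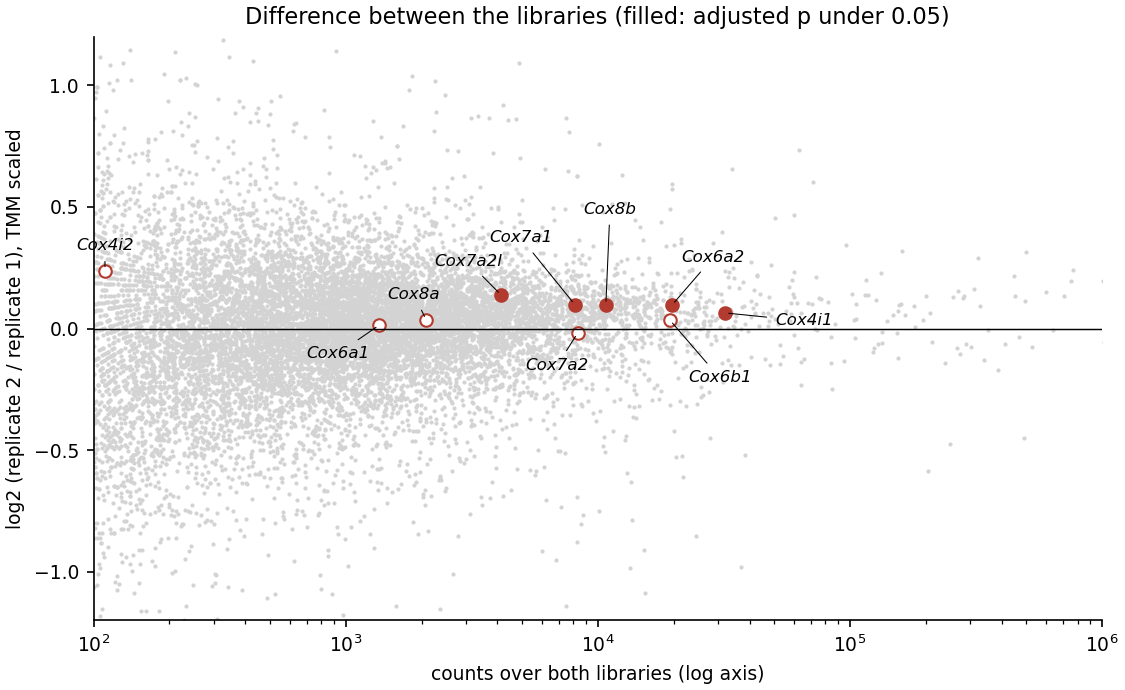
Log2 difference between the libraries (replicate 2 over replicate 1, TMM scaled) against the counts over both libraries on a log axis, with all tested genes in grey, from 100 counts and within 1.2 log2 units, and the 10 genes in red. Filled red points (5 genes) passed the exact binomial test and lie between 0.06 and 0.14.

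The median absolute log2 difference was 0.18 over all genes tested, from 10 counts upward, and the median of the 10 genes was 0.08. Genes were not matched by counts for this, and Cox4i2, on 54 and 57 counts, differed by 0.24. The direction of the differences of the 10 genes rests on the scaling. With the added ERCC RNAs as the scale, 9 of the 10 were called and all were lower in replicate 2, where 52.5% of all genes were called and the median log2 difference was -0.30 over all genes and -0.22 over the 10. Scaling by all annotated counts left 1 call, Cox6a2 (20.9% of all genes called), and the read-based counts gave 4, without Cox8b (21.9% of all genes called). Muscle fibre markers moved the same way, 6 of 6 higher in replicate 2 with a median log2 difference of 0.18, and with the ERCC scale 5 of these 6 were lower. Of the slow or oxidative fibre markers 2 of 5 were called with TMM scaling, Myh7 (-0.12) and Myh2 (-0.063), both lower in replicate 2. Tnnt1, Tnni1 and Myl2 were not called. Also called lower were 2 of 3 endothelial markers. Of the pericyte and smooth muscle markers 3 of 10 were called higher and 2 called lower. Of the 4 brown adipocyte markers 3 were tested and 2 called, both higher in replicate 2: Ucp1 on 1 and 20 counts (adjusted p = 6.35e-05) and Dio2 on 66 and 97 counts (adjusted p = 0.0131, both by the exact binomial test). Cidea went the other way on 70 and 39 counts, by -0.68, and was not called (adjusted p = 0.0697, exact binomial test). The part of all these markers in the result was not tested. Of 42 other complex IV genes 39 were tested, 10 passed and 9 of these were higher in replicate 2. Among all genes tested 21.7% passed, and 11.4% passed as higher. With the ERCC scale 23 of the 39 passed and 1 of these was higher, where 52.5% of all genes passed. The largest differences among the called assembly factors and electron carriers were those of Cox10 (0.32, adjusted p = 5.07e-06), an enzyme of heme A synthesis, and Cox19 (0.29, adjusted p = 0.00682, both by the exact binomial test). Of the subunits encoded in the nucleus, Cox5a (0.11) and Cox7c (0.13) were called higher with TMM scaling, and both were lower with the ERCC scale. Of those encoded in the mitochondrion, mt-Co3 was called higher (0.73, and 0.43 with the ERCC scale) and mt-Co1 lower (-0.056, and -0.36 with the ERCC scale), on counts that are uncertain for the shared stretches given above.

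Promoter windows were at hand for 7 of the 10 genes, from 250 bases before to 50 bases after the gene's start (RefSeq, GRCm38.p6). Those of the pairs Cox7a1 and Cox7a2 and Cox8b and Cox8a are shown, so that a muscle form and its ubiquitous counterpart can be compared, with matches to the motifs searched in capitals. They lie at chr7:30183921-30184220 on the plus strand and at chr9:79759804-79760103, chr7:140900397-140900696 and chr19:7217567-7217866 on the minus strand.
Cox7a1: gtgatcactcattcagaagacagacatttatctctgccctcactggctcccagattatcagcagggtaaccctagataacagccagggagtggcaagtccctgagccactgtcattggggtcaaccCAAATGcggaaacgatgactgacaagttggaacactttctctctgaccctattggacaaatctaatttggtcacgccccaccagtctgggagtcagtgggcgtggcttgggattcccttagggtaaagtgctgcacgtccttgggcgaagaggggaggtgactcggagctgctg
Cox7a2: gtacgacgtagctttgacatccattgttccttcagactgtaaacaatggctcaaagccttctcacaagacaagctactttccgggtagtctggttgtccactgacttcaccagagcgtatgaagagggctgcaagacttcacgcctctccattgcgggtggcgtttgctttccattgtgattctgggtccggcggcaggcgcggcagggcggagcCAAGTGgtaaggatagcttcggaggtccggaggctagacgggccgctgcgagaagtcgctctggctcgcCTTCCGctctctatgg
Cox8b: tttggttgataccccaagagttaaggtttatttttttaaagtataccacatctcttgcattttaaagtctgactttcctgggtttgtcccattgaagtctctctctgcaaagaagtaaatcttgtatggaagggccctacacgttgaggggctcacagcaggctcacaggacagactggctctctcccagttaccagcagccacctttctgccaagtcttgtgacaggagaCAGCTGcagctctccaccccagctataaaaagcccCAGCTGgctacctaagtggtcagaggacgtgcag
Cox8a: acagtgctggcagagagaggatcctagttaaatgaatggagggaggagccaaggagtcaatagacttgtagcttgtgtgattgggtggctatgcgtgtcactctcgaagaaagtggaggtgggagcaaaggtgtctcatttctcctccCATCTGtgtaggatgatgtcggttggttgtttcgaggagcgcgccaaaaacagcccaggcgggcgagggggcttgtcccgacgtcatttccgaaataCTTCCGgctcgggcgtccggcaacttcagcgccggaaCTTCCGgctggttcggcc
A string that holds the GGAA core of ETS factors, CGGAAG on either strand, was found in 16.9% of 32851 promoters. It occurred in Cox7a2 (1 match), Cox8a (2), Cox6a1 (1) and Cox6b1 (2), and not in the windows of Cox7a1, Cox8b and Cox7a2l. GGAA alone was not searched, and it stands in the windows of Cox7a1 and Cox8b shown above. The E-box CANNTG, which reads the same on both strands and was found in 72.3% of all promoters, occurred in each of the 7 windows but that of Cox6a1. The MEF2 motif, CTA and TAG spaced by 4 bases, was found in 3.69% of all promoters and in none of the 7. A match describes letters and not binding, and a missing match says only that these letters are not in the window.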

How the data were processed

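Total RNA-seq of 2 libraries of 1 group was used, on mm10 with GENCODE M21 per the labels and the deposited description. Which aligner and quantifiers were run is not given in the sources used here, and replicates were not pooled. The authors deposited expected counts (estimated reads, not normalised) and TPM per gene and transcript from transcriptome alignments, and a second transcript table made from the reads. The deposited interval bounds of the TPM (a signal in TPM units) are the quantifier's own. Read-based transcripts were summed per gene.

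Numeric identifiers and added RNAs were left out of gene tests. Expected counts were rounded, scaled by TMM (edgeR 4.0.16, R 4.3.3) and tested between the libraries with a two-sided exact binomial test (scipy 1.17.1) for genes with at least 10 counts, adjusted by Benjamini-Hochberg, threshold 0.05. The test was checked on simulated counts. DESeq2 1.42.0 gave other size factors. Floors, set at 3 counts, and the binomial test cover counting error only. Ratios are means of per-library TPM ratios, without a pseudocount (1 TPM in an alternative).

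The genes and lists were chosen with earlier results of these data known. Named were all 10 paralogues, the other subunits and transcripts holding 10% or more of a gene on average. From the assembly and electron carrier lists came the 2 highest and the 2 most different called genes. The entries that share sequence with named genes (Gm6969, AC148174.2, Gm29216, Gm28661 and Gm28437) were chosen after their values were seen. Pet117 and Higd1a were named in addition, for read-based values already seen. Coa8 was matched by its older symbol through RefSeq. Alternatives were other scalings, filters, quantifications and units, and leaving out a library.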

Additional observations from a re-analysis of the deposited data

How the results depend on the processing

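With 1 group of 2 libraries, neither ratios nor levels carry a test, and depth limits Cox4i2 most. The Cox7a1/Cox7a2 ratio was the only ratio to turn, to 0.878 in the read-based tables, 0.979 over expected counts and, added after seeing the data, 0.710 over read-based counts divided by alignment-based lengths; over coding transcripts (also added) it was 2.27 and 2.22. The Cox6a2/Cox6a1 ratio was 7.63 read-based, 14.4 over counts, 8.38 over the mixed measure and 56.2 over read-based coding transcripts. The Cox8b/Cox8a ratio was 7.23 read-based, as over read-based coding transcripts, 5.16 over counts and 5.05 over the mixed measure. Cox7a2/Cox7a2l was 5.08, 2.01 and 3.24 in that order and 2.85 and 2.61 over coding transcripts. Cox4i1/Cox4i2 was 210.2 with 1 TPM added and 255.5 over read-based coding transcripts. Single libraries gave 11.4 to 12.1, 1.62 to 1.76, 8.72 to 9.10, 266 to 302 and 3.62 to 4.05 for Cox6a2/Cox6a1, Cox7a1/Cox7a2, Cox8b/Cox8a, Cox4i1/Cox4i2 and Cox7a2/Cox7a2l.

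The coefficient of variation over positions was 22.0% read-based and 40.9% and 43.4% over coding transcripts (added), and 23.2% to 25.7% in single libraries. The coding share in the read-based tables was 85.6% for Cox4i1, 14.5% for Cox6a1, 39.5% for Cox7a2 and 76.7% for Cox7a2l. Past 2-fold, 1 gene differed between the quantifications. The count of called genes was 1 with annotated totals (20.9% of all genes called) and 9 with ERCC totals (52.5% of all genes called). With ERCC totals 23 other complex IV genes were called, directions turned. ERCC scaling gave log2 differences of -0.24 (Cox4i1), -0.064 (Cox4i2), -0.29 (Cox6a1), -0.21 (Cox6a2), -0.27 (Cox6b1), -0.20 (Cox7a1), -0.32 (Cox7a2), -0.16 (Cox7a2l), -0.27 (Cox8a) and -0.21 (Cox8b), all called but Cox4i2. Annotated totals gave -0.013 for Cox6a1, and read-based counts 0.013 for Cox7a2 and -0.10 for Cox8a, all uncalled. DESeq2 size factors and dropping the count filter changed no call of the 10 genes and left 9 calls each among the other complex IV genes, against 10. The causes were not tested. No copy named as a -ps entry of the 10 genes exists in the tables, so that alternative was not run. No paired analysis was possible because there is 1 group.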
